A study of Mus musculus with 22 samples.

Results

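The 5 genes described here encode a nuclease and cofactors of the nuclear RNA exosome: Dis3 (XLOC_019864), Skiv2l2 (XLOC_016817), Zfc3h1 (XLOC_005498), Papd7 (XLOC_016449) and C1d (XLOC_007739). They were chosen by the function of their products from the 24 loci that the study lists as exosome-associated. Each is 1 row of the 66494 loci in both deposited tables. The study measured RNA in cerebellar Purkinje cells (PCs) of mice that had lost Tsc1, an inhibitor of mTORC1 signaling, and asked whether RNA decay and ribosome binding differ in these cells.

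Mutant mice (Tsc1 fl/fl, labeled CC) and control mice (Tsc1 +/+, labeled WW) were of strain C57BL/6. According to the study's methods both genotypes carried L7Cre, in which the L7 (Pcp2) promoter drives Cre in PCs, although the legend on cell sorting lists no Cre for the sorted controls, so whether these expressed Cre is not settled here. Total RNA came from GFP-positive cells sorted from the cerebellum of animals that also carried L7GFP, with 5 mutant and 5 control libraries. Ribosome-bound RNA came from the whole cerebellum by translating ribosome affinity purification (TRAP), in which the Rosa26fsTRAP allele tags ribosomes with GFP once Cre has acted. TRAP had 3 libraries each of untreated controls, controls given rapamycin (an mTORC1 inhibitor), untreated mutants and mutants given rapamycin. Each TRAP library was made from 1 animal, the labels do not say whether sorted libraries 144a and 144b are separate animals, and no age of any library nor any dose of rapamycin is in the labels.

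The RNA exosome is a ring of subunits that degrades or trims RNA from its 3′ end. DIS3 is the subunit with catalytic activity toward RNA that passes through the ring, and in the nucleus EXOSC10 is a further nuclease. Cofactors bring substrates to the nuclear exosome. Skiv2l2, now named Mtrex, encodes the MTR4 helicase that unwinds RNA and is shared by the TRAMP, NEXT and PAXT assemblies. Zfc3h1 encodes the zinc finger scaffold of PAXT, which handles polyadenylated nuclear RNA. Papd7, now named Tent4a, encodes a noncanonical poly(A) polymerase related to the tailing enzyme of TRAMP. C1d encodes a small RNA-binding partner of EXOSC10 that also binds MTR4.

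In the GRCm38 build with GENCODE M21 annotation, Dis3 lies at chr14:99075206-99099770 on the minus strand and Skiv2l2 at chr13:112867418-112927398 on the minus strand. Zfc3h1 lies at chr10:115384959-115432772 on the plus strand, Papd7 at chr13:69497959-69534617 on the minus strand and C1d at chr11:17257579-17269176 on the plus strand. The reference transcript that the study pairs with a locus was protein coding for Skiv2l2 (27 exons, 3.69 kb), Zfc3h1 (35 exons, 6.96 kb), Papd7 (13 exons, 4.75 kb) and C1d (5 exons, 2.98 kb). For Dis3 it was a retained-intron transcript of 2 exons and 0.672 kb at chr14:99077216-99078683. The only annotated coding transcript of Dis3 has 21 exons and 5.15 kb, so the value of this locus cannot be tied to the coding mRNA here. Exons of 3 of the genes overlap an exon of a coding gene on the opposite strand: Dis3 shares 325 bases with Pibf1, Skiv2l2 shares 452 bases with Plpp1, and Papd7 shares 165 bases with Nsun2. The sources used here do not state that strand was kept, so fragments from these stretches could belong to either gene. C1d overlapped no other annotated gene, and no exon of Zfc3h1 did.

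Libraries held 43.3 to 86.3 M fragments in sorted PCs and 2.47 to 6.38 M in TRAP. Sorted libraries differed in their makeup: 6 PC markers (Pcp2, Calb1, Itpr1, Gng13, Car8, Rora) summed to 3954 to 7838 ppm of the library signal in controls and 374 to 4854 in mutants. Over 5 markers of other cells (the astroglial Gfap, Apoe and Tnc, the microglial Csf1r and the endothelial Flt1) the sum was 1956 to 4649 in controls and 3770 to 5519 in mutants, and all 11 markers were above 0 in every sorted library. The markers did not move as 1. By median deposited value, Gfap (12885 against 14797) and Flt1 (5241 against 8116) were lower in sorted mutants than in controls. Apoe (230366 against 200697), Tnc (37440 against 15134) and Csf1r (17834 against 17202) were higher. In TRAP the same 5 markers summed to 96.2, 73.8 and 455 ppm in untreated mutant libraries 1, 2 and 3, all above the 9 other TRAP libraries (13.1 to 45.9 ppm, and 17.1 to 45.9 in untreated controls). In mutant library 3 the PC markers stood at 9934 ppm, against 1558 to 3109.7 elsewhere. Flt1 was listed at 0 in all 3 untreated control TRAP libraries. These markers were listed by the study because they changed in these libraries, and their part in the results for the 5 genes was not tested. In bulk libraries fewer cells of a type and less RNA per cell cannot be told apart.

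To learn whether loss of Tsc1 altered the total RNA of these genes, sorted mutant PCs were compared with sorted control PCs. All 5 genes had a higher mean in mutants, by 0.16 to 0.78 on the log2 scale, and none differed beyond the spread between libraries. A locus passed where limma on log2(value + 1) gave p below 0.01 without adjustment and more than 2-fold change. None of the 5 genes passed these thresholds, against 242 of 16455 loci tested (1.47%). The lowest unadjusted p of the 5 was 0.0607 and the lowest Benjamini-Hochberg adjusted p was 0.450. At an unadjusted p under 0.05 the count was 0 as well, against 1861 loci (11.3%). The median difference of the 5 genes was 0.26, beside 0.03 over all loci tested, of which 52.6% were above 0. No locus in the table had an adjusted p under 0.05 in this comparison.

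Dis3 had values of 850.4, 747, 719.8, 1028 and 1236 in mutant libraries 103, 167, 191, 61 and 74, in the deposited unit of fragments divided by a size factor. In control libraries 144a, 144b, 176, 45 and 48 the values were 641, 846, 586, 1199 and 672. The groups overlapped, and the highest library of each genotype (1236 and 1199) differed little. The mutant minus control difference was 0.24 (SE 0.24, n = 5 and 5, adjusted p = 0.666 in limma). It was 0.12 without mutant library 74 and 0.40 without control library 45.

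Skiv2l2, the helicase gene, had values of 4224, 3935, 3919, 3743 and 3296 in mutant libraries 103, 167, 191, 61 and 74. Control libraries 144a, 144b, 176, 45 and 48 had 2586, 2656, 4372, 2779 and 2534. Every mutant library lay above 4 of the 5 controls, and control library 176 lay above all mutants. The difference was 0.39 (SE 0.18, adjusted p = 0.450 in limma), a fold of 1.31 on the log2(value + 1) scale. Without control library 176 it was 0.53.

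Zfc3h1, the PAXT scaffold gene, showed the widest spread. Its values were 4786, 1056, 1121, 2065 and 3275 in mutant libraries 103, 167, 191, 61 and 74, and 952, 950.5, 1012, 2725 and 1043 in control libraries 144a, 144b, 176, 45 and 48. In 4 libraries (mutants 103, 61 and 74 and control 45) the values ran from 2065 to 4786, and in the other 6 libraries of both genotypes from 950.5 to 1121. The difference was 0.78 (SE 0.48, adjusted p = 0.520 in limma), with a 95% interval from -0.29 to 1.84. Without mutant library 103 it was 0.47, and without control library 45 it was 1.07. Mutant libraries 103, 61 and 74 are all the libraries of submission MS2723 and held the lowest PC marker sums (374, 692 and 1565 ppm). Control library 45 belongs to submission MS2872 and held the highest PC marker sum (7838 ppm).

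Papd7, the poly(A) polymerase gene, had values of 1589, 1679, 1478, 2080.3 and 1783 in mutant libraries 103, 167, 191, 61 and 74 and of 1405, 1245, 1604, 1395 and 1532 in control libraries 144a, 144b, 176, 45 and 48. The ranges overlapped between 1478 and 1604. The difference was 0.26 (SE 0.15, adjusted p = 0.499 in limma). C1d had 3933, 4758, 4614, 4806 and 4338 in the mutants and 3949.6, 4774, 4645, 3301 and 3515 in the controls, in the same order of libraries. Controls 45 and 48 lay below every mutant and the other 3 controls within the mutant range, with a difference of 0.16 (SE 0.15, adjusted p = 0.645 in limma). Without control library 45 the C1d difference was 0.096.

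**Figure D1:**
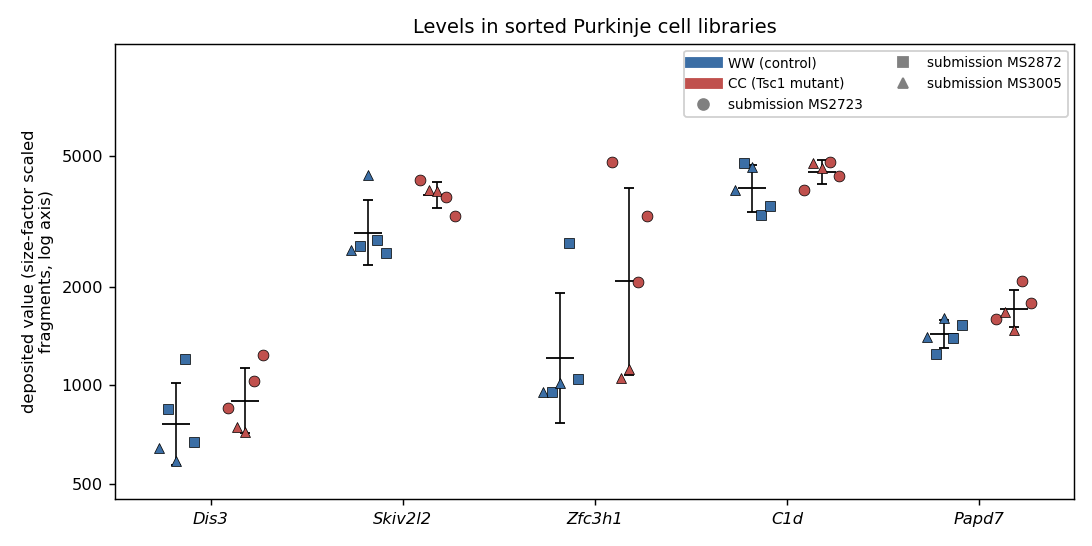
Deposited values of the 5 genes in each sorted library (log axis), with controls (WW) in blue and mutants (CC) in red and the marker shape giving the submission; bars are the mean and SD of log2(value + 1) over 5 libraries. The genotypes overlap for every gene, and Zfc3h1 splits into 4 libraries from 2065 to 4786 and 6 libraries from 950.5 to 1121.

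Sequencing submission and genotype were partly confounded, since submission MS2723 held mutants only and MS2872 controls only. Submission MS3005 held 2 libraries of each genotype. Within it the mutant minus control differences kept their sign and were 0.26 for Dis3, 0.22 for Skiv2l2, 0.15 for Zfc3h1, 0.13 for C1d and 0.07 for Papd7. For Zfc3h1 the MS3005 values were 1056 and 1121 in mutants and 952 and 1012 in controls, so that the pooled difference of 0.78 was larger than that within this submission. None of the 5 genes passed the thresholds within MS3005, where 0.605% of all loci did, or with the submission as a term, where 0.201% did.

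Levels were compared between genes per kilobase of the paired reference transcript, with Dis3 left out because of its paired transcript. The assembled C1d transcript is not an exact match of its reference transcript, unlike those of Skiv2l2, Zfc3h1 and Papd7. The length used for C1d, and so its place, is therefore less certain. C1d was the highest in sorted control PCs (1354 ± 221 per kb, SD, n = 5), followed by Skiv2l2 (809 ± 212), Papd7 (302 ± 29.1) and Zfc3h1 (192 ± 112). Mutants had the same order, with C1d at 1506 ± 121, Skiv2l2 at 1036 ± 92.7, Papd7 at 363 ± 48.4 and Zfc3h1 at 354 ± 227 (SD, n = 5). Papd7 and Zfc3h1 overlapped in both genotypes. C1d and Skiv2l2 overlapped in controls and were separate in mutants, and both lay above Papd7 in every library.

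Whether the 5 genes vary together was examined over the 10 sorted libraries, with 10 pairs of genes. Pearson's r ran from -0.31 (Zfc3h1 and C1d) to 0.73 (Dis3 and Zfc3h1), and 7 of the 10 pairs were above 0. None had an adjusted p under 0.05 by the permutation test. The pair of Dis3 and Zfc3h1 had r = 0.73 (permutation p = 0.0188, adjusted p = 0.188) and Spearman's rho = 0.72 (permutation p = 0.0227, adjusted p = 0.227). Without the 2 libraries farthest from the Dis3 median (mutant 74 and control 45) r was 0.57. The 4 libraries with high Zfc3h1 were also the 4 with the highest Dis3 value, although mutant 103 (850.4) stood only just above control 144b (846). Libraries within a genotype share a genotype and often a submission, so the pairs are not free of those groupings.

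The loci most like each gene across the 10 sorted libraries were ranked by Pearson's r over the 1236 loci that passed the filter and have a symbol in the study's lists, as a description. For Zfc3h1 they were Pan2 (r = 0.98), the catalytic subunit of a poly(A) nuclease, then Zcchc7 (r = 0.96), the zinc knuckle gene of TRAMP, and Gnl2 (r = 0.96). Zcchc7 belongs to the study's exosome list and had 2272, 918 and 2192 in mutants 103, 61 and 74 and 1469 in control 45, against 158 to 366 in the other 6 libraries. For Skiv2l2 they included Ccl12 (r = 0.88), a chemokine gene, and Mlec (r = 0.86). For Papd7 they were Rasa3 (r = 0.94), Prkra (r = 0.89) and St6galnac5 (r = 0.83). For C1d they included Erg28 (r = 0.88), which acts in sterol synthesis, and Mcm9 (r = 0.86). For Dis3 they were Dancr, Gm28523 and Dpp7 (each r = 0.84).

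Ribosome-bound RNA was compared between untreated mutants and untreated controls to learn whether loss of Tsc1 altered the ribosome-bound level of these genes. This comparison does not set that level against total RNA. C1d and Papd7 had lower means in mutant TRAP, by 1.27 and 0.68 on the log2 scale, and the other 3 genes had means within 0.24 of controls. None of the 5 genes passed the thresholds, against 189 of 9658 loci tested (1.96%). At an unadjusted p under 0.05 the count was also 0, against 783 loci (8.11%), and the lowest adjusted p in limma was 0.663. The summed markers of other cells were higher in all 3 untreated mutant libraries than in all 3 controls (73.8 to 455 against 17.1 to 45.9 ppm). Gfap, Apoe, Csf1r and Flt1 were each higher in every mutant, while Tnc was lower in every mutant (deposited values of 0 to 2.12 against 5.57 to 15.3). Their part in this comparison and in ΔTE was not tested. The C1d difference was -0.65 without mutant library 2. With libraries scaled to equal totals C1d was at -0.84 and Papd7 at -0.28, while the median of all loci moved from 0.07 to 0.47. Depth was low: a gene rested on 2 to 89 fragments in an untreated TRAP library. The replicates behind these p-values are separate animals.

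C1d, the EXOSC10 partner gene, had values of 23.8, 13.8 and 31.7 in control TRAP libraries 1, 2 and 3 and of 9.81, 3.01 and 18.8 in mutant libraries 1, 2 and 3. These rested on 28, 22 and 57 fragments in controls and on 5, 2 and 62 in mutants. Only mutant library 3 reached into the control range, and a fragment there was worth 0.303 units against 0.557 to 1.96 in the other 5 untreated libraries. The mutant minus control difference was -1.27 (SE 0.64, n = 3 and 3, adjusted p = 0.663 in limma). Papd7 had 26.4, 14.4 and 24.5 in controls (31, 23 and 44 fragments) and 11.8, 12.0 and 14.9 in mutants (6, 8 and 49 fragments). The highest mutant stood just above the lowest control. Its difference was -0.68 (SE 0.37, adjusted p = 0.685 in limma).

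Zfc3h1 had 23.0, 5.65 and 11.1 in control TRAP and 11.8, 9.04 and 8.50 in mutant TRAP, so that all mutants lay inside the control range (difference -0.22, SE 0.51, adjusted p = 0.924 in limma). Skiv2l2 had 28.1, 55.8 and 6.12 in controls and 37.3, 16.6 and 24.5 in mutants (difference 0.18, SE 0.77, adjusted p = 0.968 in limma). Its control libraries spanned the whole mutant range. Dis3 had 10.2, 5.65 and 7.79 in controls and 22.6, 3.01 and 10.3 in mutants (difference 0.24, SE 0.65, adjusted p = 0.942 in limma). Here the mutants spanned the whole control range.

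**Figure D2:**
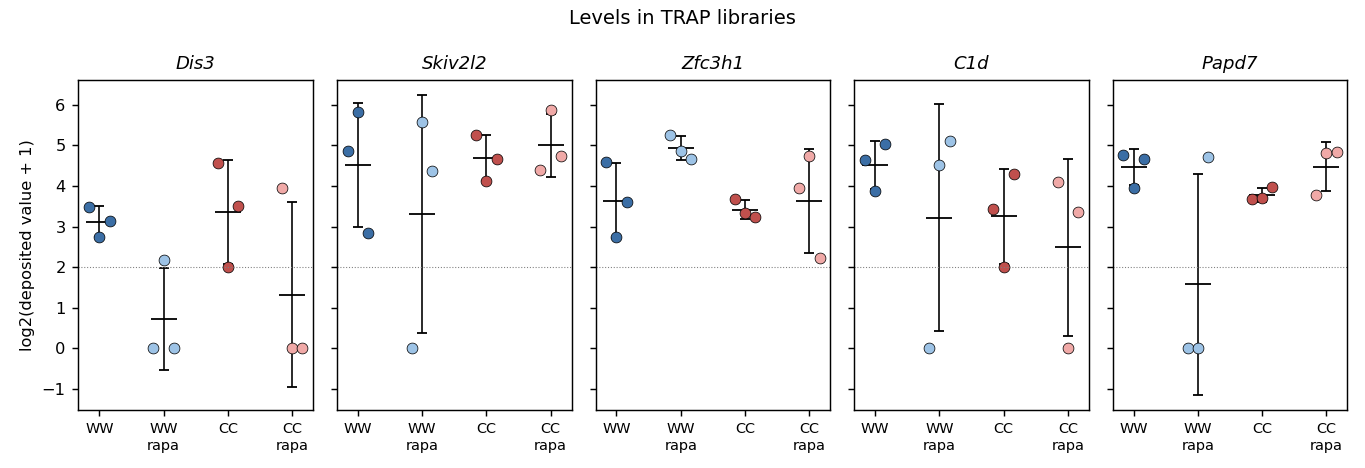
Level of each gene as log2(deposited value + 1) in each of the 12 TRAP libraries, by genotype and rapamycin; short bars are the mean and whiskers the SD over 3 libraries, and the dotted line marks the mean level of 2 a locus needed to be tested. Points at 0 are libraries in which the gene was listed at 0, which occurs only in groups given rapamycin.

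The change in translational efficiency (ΔTE) sets the genotype difference in TRAP against that in sorted PCs. It was below 0 for 4 of the 5 genes, at -1.43 for C1d (SE 0.55), -0.998 for Zfc3h1 (SE 0.74), -0.93 for Papd7 (SE 0.31) and -0.20 for Skiv2l2 (SE 0.67), and it was 0.00079 for Dis3 (SE 0.61). With submission as a term or with MS3005 alone, the ΔTE of Zfc3h1 was -0.37, and without control TRAP library 1 it was -0.53. Over all 9374 loci tested, the median ΔTE was 0.19 and 60.4% were above 0. In the limma interaction of genotype and assay none of the 5 genes passed the thresholds, against 411 loci (4.38%). Papd7 had an adjusted p of 0.216 and C1d of 0.256. These 2 of the 5 genes were below 0.05 before adjustment, against 1362 loci (14.5%).

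By the study's measure, a Z-score over 100 recalculations that leave out libraries, 1 of the 5 genes stood above 4, against 785 of 9374 loci (8.37%). It was Papd7 with a Z-score of 4.77. C1d had 3.09, Zfc3h1 2.10, Skiv2l2 0.29 and Dis3 0.0015. In deposited values, every mutant sorted library was above the control mean for Papd7 and every mutant TRAP library below it. This pattern held for 1.98% of the loci tested. As ppm of the library signal, Papd7 in mutant TRAP library 3 (17.3) lay above all controls (6.32, 4.02 and 6.90). Mutant TRAP libraries 1 and 2 (2.24 and 2.34) lay below them. The Papd7 Z-score was 0.917 with libraries scaled to equal totals, 3.15 when sorted libraries came from MS3005 alone, and from 1.97 (without control TRAP library 1) to 12.6 (without control TRAP library 2) when single libraries were left out. Without mutant TRAP library 3, C1d (-1.96, adjusted p = 0.128) and Papd7 (-1.03, adjusted p = 0.232) both passed the unadjusted limma thresholds, as did 4.04% of all loci in that setting. Both also passed without control TRAP library 2, where 744 loci (7.94%) did. There Papd7 had an adjusted p under 0.05 in limma, with 284 loci under 0.05 in that setting against 41 in the main fit. Without mutant TRAP library 2 the ΔTE of C1d was -0.81.

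Set against total RNA, the place of each gene among the 9374 loci was lower in mutants for every gene. Papd7 stood at percentile 77.5 of TRAP minus sorted level in controls and at percentile 47.5 in mutants. The places in controls and mutants were 37.8 and 9.64 for C1d, 62.5 and 29.3 for Zfc3h1, 50.7 and 40.0 for Skiv2l2, and 66.6 and 62.5 for Dis3. The tables were scaled separately, so these places are a description and were not tested.

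**Figure D3:**
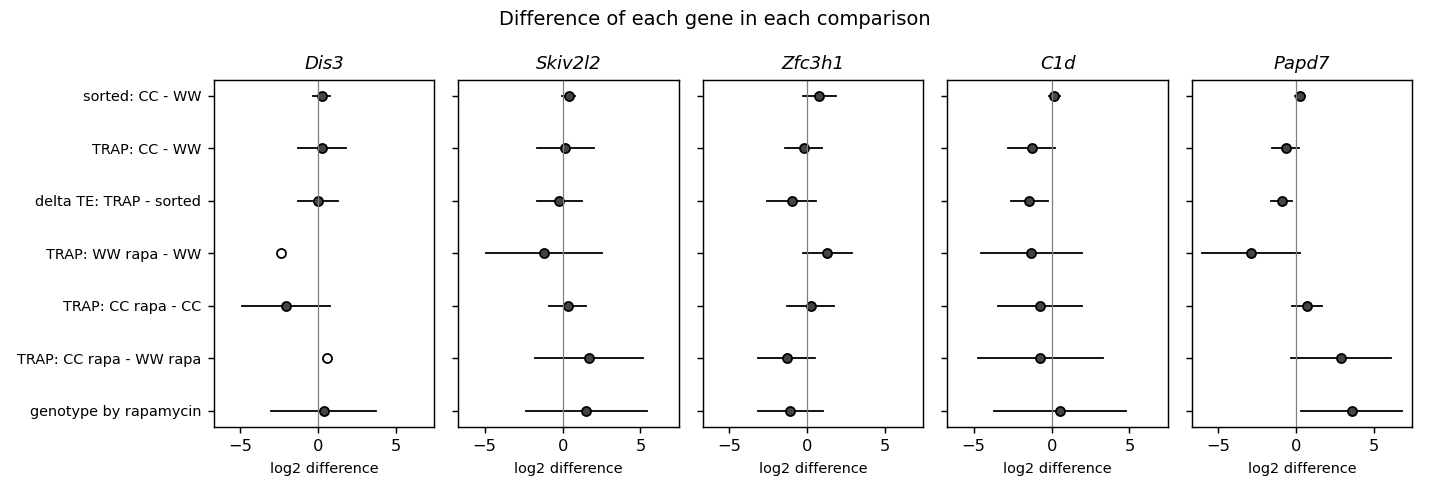
Log2 difference of each gene in each of the 7 comparisons on a shared axis; lines are 95% intervals from limma, and open circles mark comparisons in which Dis3 was too low to be tested. In sorted PCs the 5 differences run from 0.16 to 0.78, and the intervals of TRAP comparisons are wider.

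Rapamycin was compared with no treatment within each genotype to learn whether mTORC1 inhibition altered ribosome-bound RNA. The comparisons share their untreated libraries with the genotype comparison above. In controls, Zfc3h1 had a higher mean after rapamycin and the other 4 genes lower means, and none of the 4 genes tested passed the thresholds, against 91 of 8682 loci (1.05%). The median of all loci was -0.31. Dis3 was not tested because its mean level fell below the filter. In control rapamycin library 1, 4 of the 5 genes were listed at 0. That library had the fewest loci above 0 of all 12 (8449) and gave 72.6% of its signal to 10 loci. The other TRAP libraries gave 58.3% to 70.8% to 10 loci, except untreated mutant library 3 with 40.5%.

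Zfc3h1 had 37.3, 28.3 and 24.6 in control libraries 1, 2 and 3 with rapamycin (39, 32 and 40 fragments) against 23.0, 5.65 and 11.1 without (27, 9 and 20 fragments). The groups did not overlap, which held for 11.8% of all loci tested in this comparison. The difference was 1.30 (SE 0.67, adjusted p = 0.850 in limma), and it ran from 0.84 to 1.77 when single libraries were left out. Papd7 was listed at 0, 0 and 25.2 with rapamycin, against 14.4 to 26.4 without, for a difference of -2.89 (SE 1.33, adjusted p = 0.850 in limma). Leaving out rapamycin library 3 leaves Papd7 at 0 in both others, so its pass there (-4.46, with 4.97% of all loci past) is set by zeros and is no test. C1d was listed at 0, 22.1 and 33.8 (difference -1.30, SE 1.37) and Skiv2l2 at 0, 46.8 and 19.7 (difference -1.19, SE 1.56), and without rapamycin library 1 their differences were 0.31 and 0.47. Dis3 was listed at 0, 3.54 and 0, below the untreated range of 5.65 to 10.2.

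In mutants given rapamycin, Dis3 and C1d had lower means than without it and the other 3 genes higher means, and none of the 5 passed the thresholds, against 169 of 9664 loci (1.75%). The summed markers of other cells were at 14.1 to 28.5 ppm with rapamycin and at 73.8 to 455 ppm without it. Their part in this comparison and in the interaction of genotype and rapamycin was not tested. Papd7 had 12.7, 27.0 and 27.7 with rapamycin and 11.8, 12.0 and 14.9 without (difference 0.68, SE 0.40, adjusted p = 0.650 in limma). With libraries scaled to equal totals the Papd7 difference was -0.08, and those of Skiv2l2 and Zfc3h1 were also below 0. In that scaling the median of all loci was -0.80, against -0.04 in the main fit. Skiv2l2 had 19.9, 57.7 and 25.8 (difference 0.31, SE 0.51), overlapping its untreated range of 16.6 to 37.3. Zfc3h1 had 14.5, 25.6 and 3.69 (difference 0.22, SE 0.64), which spanned its untreated range of 8.50 to 11.8. C1d was at 16.3, 0 and 9.23 (difference -0.76, SE 1.13). Dis3 was at 14.5, 0 and 0 (difference -2.04, SE 1.19, adjusted p = 0.650 in limma). Without mutant rapamycin library 1 both remaining libraries are at 0, so the pass of Dis3 there (-3.36, with 1.94% of all loci past) is set by these zeros and is no test.

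Under rapamycin, mutants were compared with controls, and none of the 4 genes tested passed the thresholds, against 107 of 8728 loci (1.23%). Papd7 was 2.90 higher in mutants (SE 1.35, adjusted p = 0.869 in limma) and Skiv2l2 1.69 higher (SE 1.45), while Zfc3h1 was 1.30 lower (SE 0.76) and C1d 0.73 lower (SE 1.67). When single libraries were left out, the difference ran from 0.027 to 2.82 for Skiv2l2 and from -1.85 to -0.59 for Zfc3h1. The interaction of genotype and rapamycin tests whether the response to the drug differed between genotypes. No gene of the 5 passed the thresholds, against 175 of 9174 loci (1.91%). Papd7 had the largest interaction of the 5 at 3.58 (SE 1.48, adjusted p = 0.781 in limma), the 1 gene of the 5 with an unadjusted p under 0.05, against 552 loci (6.02%). It rested on the 2 control rapamycin libraries at 0. Without control rapamycin library 3 only zeros remain in that group, so the pass there (5.15, with 5.72% of all loci past) is no test.

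The order of the 4 TRAP groups differed from gene to gene. Zfc3h1 was highest in controls with rapamycin, followed by controls without it, and these did not overlap (mean log2 level 4.94 ± 0.30 against 3.64 ± 0.93, SD, n = 3). Papd7 was lowest in controls given rapamycin (1.57 ± 2.72) and nearly level between mutants given rapamycin (4.47 ± 0.61) and untreated controls (4.46 ± 0.45). Dis3 was lower in both groups given rapamycin (0.73 ± 1.26 and 1.32 ± 2.28) than in both untreated groups (3.12 ± 0.38 and 3.36 ± 1.28), and in controls its ranges with rapamycin (0 to 3.54) and without it (5.65 to 10.2) did not overlap, as for 11.8% of the loci tested, though Dis3 was itself untested and at 0 in 2 of the 3 rapamycin libraries. All other neighbors in these orders overlapped.

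The other 19 loci of the study's exosome list were measured in the same fits. They include Mpp6, which the study lists under that symbol, although the exosome cofactor called MPP6 is encoded by Mphosph6, also listed. In sorted PCs, 15 were above 0 and 4 below, none passed the thresholds and their median was 0.12. Zcchc7 (1.12, SE 0.82) and Exosc7 (0.26, SE 0.21), a ring subunit, were highest, and Mphosph6 (-0.30, SE 0.18), a nuclear cofactor, and Exosc5 (-0.25, SE 0.17), a ring subunit, were lowest. The Mphosph6 locus is paired with a transcript annotated as processed and not as protein coding, so its value cannot be tied to the coding mRNA here. In TRAP, 8 were above 0 and 11 below and none passed. Exosc1 (1.60, SE 0.74) and Hbs1l (1.40, SE 0.77), which links stalled ribosomes to decay, were highest, and Exosc2 (-2.07, SE 0.87) and Exosc5 (-1.07, SE 0.72) were lowest. For ΔTE, Exosc1 (1.63) and Hbs1l (1.37) were highest and Exosc2 (-2.15) and Zcchc7 (-1.70) lowest, and none passed in limma.

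Exosc10, the nuclease with which the C1d protein pairs, was the 1 of these 19 with a ΔTE Z-score above 4 (4.71), against 8.37% of all loci. It had 35.7, 27.6 and 23.9 in control TRAP and 9.81, 16.6 and 16.4 in mutant TRAP, without overlap, and a difference of -0.996 (SE 0.37, adjusted p = 0.589 in limma). Groups that did not overlap made up 15.4% of all loci tested in TRAP. Its locus is paired with a transcript annotated as a target of nonsense-mediated decay. In sorted PCs its difference was 0.17 (SE 0.24). No rapamycin comparison had a locus of the 19 past the thresholds, with 16 of the 19 tested in controls and 17 in mutants.

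**Figure D4:**
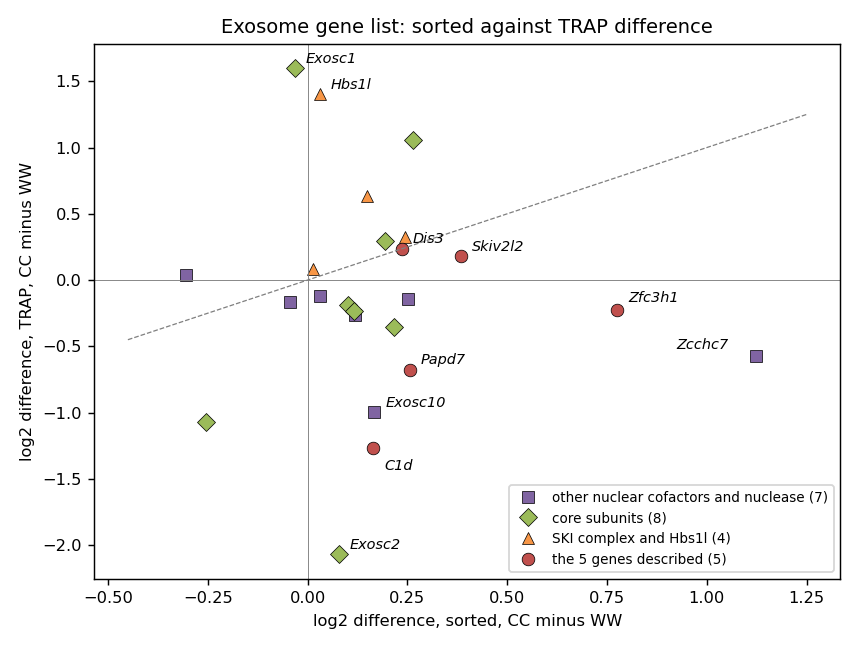
Mutant minus control log2 difference in sorted PCs (x axis) against that in TRAP (y axis) for the 24 loci of the exosome list, by class, with equal differences on the dashed line. The class of other nuclear cofactors and nuclease includes Mpp6 because the study lists it, although Mphosph6 encodes the cofactor MPP6. C1d, Papd7 and Zfc3h1 lie above 0 in sorted PCs and below 0 in TRAP, as do 9 of the 19 other loci and 1969 of the 9374 loci tested for ΔTE, and none of the 24 passed the thresholds in either comparison.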

How the data were processed

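Reads were trimmed with Trimmomatic 0.39, mapped with STAR 2.7.0f to GRCm38 and quantified with Cufflinks 2.2.1, per the submitters' processing notes. Both deposited tables hold a normalized signal: for each locus the authors' fragment estimate, divided by 1 size factor per library. The most frequent nonzero value of a library was taken as 1 fragment. Below 100 steps, 85.1% to 95.9% of values in a library were whole multiples within 0.01; the rest were fractional estimates, so no count test was used. The members and gene lists were chosen with earlier results of these data known.

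Values were analyzed as log2(value + 1) in R 4.3.3 by the moderated test of limma 3.58.1, using only the groups compared. Loci were tested where this mean reached 5 in sorted or 2 in TRAP libraries. A call needed p below 0.01 before adjustment (two-sided) and more than 2-fold change, with Benjamini-Hochberg adjusted p over all loci tested. ΔTE is the genotype difference in TRAP minus that in sorted cells, and its Z-score is the absolute ΔTE over the SD of 100 recalculations that each leave out 1 library per group. One variance was assumed for both assays. A fold change on this scale understates the change of low genes. Correlations used 100000 permutations. The scripts were tested on simulated data.

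The named genes were the 5 members, for each the 3 loci most like it (some loci are not reported here), and the 2 highest and 2 lowest of the other 19 listed loci per genotype comparison. An exact 0 can be a failed estimate. The locus of Tsc1 is not paired with a symbol in the sources used here, and Tsc1 was not analysed here. Columns of the study's own fold changes and p-values in the lists were not used. Alternatives were pseudocounts of 10 and 0.1, other scalings and filters, submissions, the mean of libraries 144a and 144b, replicate blocks and leaving out each library.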

Additional observations from a re-analysis of the deposited data

Results flagged for a closer look

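Within the sorted groups of 5 libraries, 10 sets of values were screened for a library far from the rest, and chance alone flags about 1 in 20 such groups. Skiv2l2 in control library 176 had a gap to the next library of 0.831 of the range of its group. Zfc3h1 in control library 45 had a gap of 0.912 of the range.

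For Papd7, in deposited values, every mutant sorted library lay above the control mean and every mutant TRAP library below it. Opposite sides of this kind, either way, held for 7.01% of the 9374 loci tested. As ppm of the library signal, Papd7 in mutant TRAP library 3 (17.3) lay above all controls (6.32, 4.02 and 6.90). Mutant TRAP libraries 1 and 2 (2.24 and 2.34) lay below them, so the pattern did not hold on that scale. Within submission MS3005 the sorted difference of Papd7 was 0.07, against 0.26 over all sorted libraries. The interaction of genotype and assay was -0.93 (adjusted p = 0.216 in limma).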

How the results depend on the processing

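Outside the fits that leave out a library, 414 of 434 recomputed values kept their direction and their side of the thresholds and 12 changed sign; leaving out a library, 403 of 453 kept both and 28 changed sign. The sorted differences of the 5 genes kept their sign in all of these. The causes of the changes were not tested.

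Scaling libraries to equal totals shifted the median of all loci to 0.47 in TRAP, -0.80 in mutants with rapamycin, -0.45 in the interaction with rapamycin and 0.54 for ΔTE. It turned Zfc3h1 in TRAP to 0.17, Skiv2l2, Zfc3h1 and Papd7 in mutants with rapamycin to -0.45, -0.49 and -0.083, Dis3 and C1d in the interaction with rapamycin to -0.13 and -0.26, and the ΔTE of Skiv2l2 to 0.15. The ΔTE of Dis3, near 0, was -0.028 with a pseudocount of 10, -0.018 with 0.1, -0.098 with quantile normalization and -0.021 with submission as a term or within MS3005. Genes with a ΔTE Z-score above 4 numbered 0 with equal totals, 0 within MS3005 and 0 where the standard error replaced the SD (Papd7 at 0.917, 3.15 and 3.13), and 1 over all 225 recalculations (Papd7 at 4.56). A separate variance for each assay, chosen after seeing the data, gave C1d and Papd7 an adjusted p of 0.509 in limma.

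Leaving out 1 library at a time, the TRAP genotype differences ran from -0.37 to 0.91 for Dis3, -0.66 to 0.84 for Skiv2l2 and -0.68 to 0.25 for Zfc3h1. With rapamycin they ran from -2.32 to 0.47 for Skiv2l2 and -2.25 to 0.31 for C1d in controls, and from -0.12 to 0.62 for Skiv2l2, -0.33 to 0.93 for Zfc3h1 and -1.57 to 0.48 for C1d in mutants. Mutants against controls under rapamycin ran from -2.34 to 0.52 for C1d. The interaction with rapamycin ran from -0.15 to 2.64 for Skiv2l2, -1.07 to 1.78 for C1d and -0.32 to 1.08 for Dis3. ΔTE ran from -0.60 to 0.68 for Dis3 and -1.04 to 0.46 for Skiv2l2. C1d and Papd7 ran from -1.80 to -0.65 and -0.93 to -0.52 in TRAP, and C1d and Zfc3h1 from -1.96 to -0.81 and -1.45 to -0.53 for ΔTE. Genes past the thresholds numbered 0 to 1 in each rapamycin comparison and the interaction, where every pass came from a group left with only zeros and is no test. These passes include Papd7 in mutants against controls under rapamycin (4.47, with 4.92% of all loci past) without control rapamycin library 3. Genes past numbered 0 to 2 for ΔTE and 0 to 1 by Z-score, the latter beside 5.91% to 9.70% of all loci. For ΔTE, C1d (-1.75, adjusted p = 0.112 in limma) and Papd7 (-1.19, adjusted p = 0.0351) also passed without control TRAP library 2, where 744 loci (7.94%) passed and 284 had an adjusted p under 0.05, against 411 and 41 with all libraries. The Papd7 Z-score was 2.05 without control TRAP library 3 and 3.62 and 3.53 without mutant TRAP libraries 1 and 2, and 12.6 without control TRAP library 2.

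Same-numbered TRAP libraries did not deviate together (18 correlations from -0.07 to 0.07). With 3 libraries per group this cannot exclude a pairing by number, which the labels neither state nor deny. The main fits used no pairing. With the replicate block 1 of the 5 genes passed for ΔTE, C1d (adjusted p = 0.0475 in limma). In that fit 553 loci (5.90%) passed and 91 had an adjusted p under 0.05.

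Counts over all loci moved more. The sorted 242 became 33 with submission as a term, 100 within MS3005 and 702 with no filter. The TRAP 189 became 80 with equal totals, 65 in 1 fit of all groups and 477 with no filter. The rapamycin counts of 91, 169, 107 and 175 became 497, 435, 520 and 389 with no filter, and the last became 28 with equal totals. In 1 fit of all TRAP groups the 91, 169 and 107 became 292, 59 and 306. With the stricter filter the 91, 107 and 175 became 23, 37 and 72. Leaving out 1 library gave 104 to 530 loci in sorted PCs, 98 to 354 in TRAP, 29 to 434, 72 to 221, 36 to 430 and 121 to 529 with rapamycin, and 294 to 744 for ΔTE. The ΔTE count of 411 became 185 with equal totals, 108 with submission as a term and 199 with a separate variance, and the Z-score count of 785 became 118, 247 within MS3005 and 123 with the standard error. With libraries 144a and 144b averaged, the sorted count was 168 and the ΔTE count 336. In that setting 13 loci had an adjusted p under 0.05 for ΔTE, against 41 in the main fit, and none of the 5 genes passed in either comparison.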
